A study of Mus musculus with 2 samples.

Results

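The 10 genes described here encode heat shock chaperones and their helpers: Hspa1a, Hspa1b, Dnajb1, Hsph1, Hspb1 and Hsp90aa1, grouped as inducible, and Hspa8, Hspe1, Hspd1 and Hspa5, grouped as constitutive. They were taken by gene symbol, and each symbol matched 1 of the 32285 genes in the count matrices. Their RNA was followed in single cells from the livers of 2 tumour-bearing Glul f/f mice, whose floxed gene encodes glutamine synthetase (GS). The GS-KO mouse received AAV8-Cre and the control mouse AAV8-GFP, and cells were taken 7 weeks after the virus. AAV8 is a viral vector with a preference for hepatocytes, and neither the promoter driving Cre nor the age of the mice is given in the labels. The tumours are named in the study's title as β-catenin-mutant hepatocellular carcinoma. Cells were enriched with magnetic beads against F4/80, a surface protein of macrophages, and dead cells were removed. With 1 mouse and 1 library a group, a difference between the libraries has no replicate check, so no p-value is given. All intervals are 95% intervals for counting error and leave out differences between mice, between cells and between preparations.

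Chaperones bind unfolded proteins and keep them from clumping while they fold. Cells hold some of them at all times, such as HSC70 (Hspa8) in the cytosol, the HSP60 and HSP10 pair (Hspd1 and Hspe1) in mitochondria and BiP (Hspa5) in the endoplasmic reticulum. Others are made in bulk only when proteins unfold, because the factor HSF1 then binds heat shock elements, repeats of GAA and its reverse TTC, in their promoters. The inducible HSP70 genes Hspa1a and Hspa1b are the standard readout of that response, and Dnajb1 and Hsph1 encode partners of HSP70. Several constitutive members also carry heat shock elements, so the grouping is one of degree. Warming, oxidation and the digestion of tissue into single cells are known to switch the inducible genes on.

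Promoter sequence was available from RefSeq (GRCm38.p6) for 8 of the 10 members, so that Hspa8 and Hsp90aa1 are named only. The 250 bases before the gene start are shown for Hspa1a (chr17:34972157-34972406, minus strand), Hspa1b (chr17:34959239-34959488, minus strand) and Hspb1 (chr5:135887669-135887918, plus strand), because Hspa1a and Hspa1b differed most between the libraries and Hspb1 differed most between cell classes in the control library. By GENCODE M21 on GRCm38, Hspa1a lies at chr17:34969190-34972156, Hspa1b at chr17:34956436-34959238 and Hspb1 at chr5:135887919-135889563. Each is written 5′ to 3′ on the gene's strand, and capitals mark a pair of inverted heat shock units, GAANNTTC or TTCNNGAA, on either strand.
Hspa1a: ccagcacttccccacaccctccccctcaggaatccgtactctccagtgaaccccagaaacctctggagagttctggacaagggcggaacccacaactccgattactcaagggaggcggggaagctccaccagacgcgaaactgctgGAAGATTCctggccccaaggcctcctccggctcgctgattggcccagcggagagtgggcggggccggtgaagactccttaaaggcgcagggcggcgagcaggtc
Hspa1b: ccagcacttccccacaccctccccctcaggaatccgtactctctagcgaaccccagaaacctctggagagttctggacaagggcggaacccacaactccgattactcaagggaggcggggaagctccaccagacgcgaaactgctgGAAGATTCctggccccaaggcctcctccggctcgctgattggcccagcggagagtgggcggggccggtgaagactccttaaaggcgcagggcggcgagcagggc
Hspb1: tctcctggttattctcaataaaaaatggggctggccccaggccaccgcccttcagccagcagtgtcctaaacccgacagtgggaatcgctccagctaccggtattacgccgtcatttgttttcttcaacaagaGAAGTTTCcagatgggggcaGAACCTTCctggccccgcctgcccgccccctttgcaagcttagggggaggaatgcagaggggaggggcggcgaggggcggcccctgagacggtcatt
Hspa1a and Hspa1b carried the same match, which starts 104 bases before the gene start. Counted from the 5′ end of the printed run, Hspa1b differed from Hspa1a at C44T, T47C and T249G. Hspb1 held 2 matches, starting 117 and 97 bases before its start. Either form of the unit pair was present in 12.8% of the 32851 promoter windows of equal length in the table, so a match is common, and its presence is a description and not a binding site.

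Shorter stretches of 30 bases show how 3 other promoters differed, again with the matched letters in capitals: Hsph1 (chr5:149636351-149636380, minus strand), Hspe1 (chr1:55088053-55088082, plus strand) and Hspa5 (chr2:34772020-34772049, plus strand).
Hsph1: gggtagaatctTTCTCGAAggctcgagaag
Hspe1: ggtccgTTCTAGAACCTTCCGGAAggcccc
Hspa5: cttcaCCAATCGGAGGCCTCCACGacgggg
Hsph1 had 1 pair of units. The Hspe1 run joined several units in a row, and a run of 3 alternating units (GAA and TTC in turn, with any 2 bases between them, on either strand) was found in only 0.466% of all windows. Such runs overlap the pairs counted above. Hspe1 and Hspd1 lie head to head and overlap, and the same 30 bases, read on the minus strand, lie in 1 of the 2 Hspd1 windows. The capitals of Hspa5 mark the endoplasmic reticulum stress element, CCAAT and CCACG with any 9 bases between them, which was found on either strand in 0.113% of windows and which is known to respond to unfolded proteins in that compartment. Neither Dnajb1 window held these letters.

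The GS-KO library gave 1366 barcodes with 8805330 unique molecular identifiers (UMIs, which count each captured transcript once), and the control library 5074 barcodes with 64770011. After filtering, 655 GS-KO and 3251 control cells were kept, with medians of 4104 and 7320 UMIs, and 1 barcode sequence occurred in both libraries. The labels state at least 7500 cells, without saying whether per library. Barcodes over the limit of 20% mitochondrial RNA, a sign of damage, were 50.8% of the GS-KO library (48.1 to 53.5) and 35.5% of the control library (34.1 to 36.8). Glul stood at 30.2 CPM (UMIs per 1000000) in GS-KO and 2984 CPM in control hepatocyte-like cells, and since the deleted part of the gene is not given, this 3′ count does not check the deletion itself. Cells were clustered together and the clusters named by markers, with "-like" because names rest on RNA. Compared were 7 named classes and 3 unnamed clusters: cluster 1, of shallow cells led by Maoa, Bnip3 and Hspb1, cluster 4, also shallow and led by Snrpf, and cluster 8, led by Gzma, in which T and natural killer markers tied. Cluster 9, of 13 GS-KO and 231 control cells, also stayed unnamed, since it had 8 macrophage and 5 Kupffer markers but Fcna of the Kupffer list and no macrophage marker among its 10 leading genes, and it had too few GS-KO cells to compare. The GS-KO library had 39 macrophage-like cells against 590 in control, 19 against 356 Kupffer-like (liver resident macrophage), 51 against 105 monocyte-like, 103 against 99 neutrophil-like, 87 against 113 endothelial-like, 124 against 494 B-like and 68 against 191 T-like cells. Clusters 1, 4 and 8 had 49 against 253, 39 against 264 and 34 against 150 cells. The Kupffer-like class was kept although its 19 GS-KO cells are under the 30 asked of the others, and the 17 GS-KO hepatocyte-like cells were too few to compare. Of the 356 control Kupffer-like cells, 64 lay in cluster 14, led by Hist1h1b and Top2a, which held 0 GS-KO cells. Their Hsp90aa1 stood at 611 CPM, against 339 CPM in the control cells of cluster 6, which held the other Kupffer-like cells. The clusters used Hspa1a, Hspa1b and Hspb1 among their 2000 variable genes, so the counts below were also made with classes built without the 10 members, an alternative chosen after seeing the data, which gave 33 inducible and 8 constitutive pairs higher among 47 and 35 measured.

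Most inducible genes were higher in the GS-KO library in most classes, and most constitutive genes were neither higher nor lower. A member was called higher or lower in a class when its CPM differed by at least 1.5-fold and it had at least 20 UMIs over both libraries. Among the 53 inducible gene and class pairs that could be measured of 60, 38 were higher in GS-KO, 5 were lower and 10 were neither, against a background of 13.9% of pairs higher and 21.4% lower over all 66740 gene and class pairs. Among 39 measured constitutive pairs of 40, 10 were higher, 2 lower and 27 neither. In percent, 71.7% of inducible and 25.6% of constitutive pairs were higher. The interval of the ratio lay above 1 for 37 of the 38 inducible and for all 10 constitutive pairs. In 6 of the 10 classes no constitutive member was called higher, and the 10 constitutive calls came from B-like cells (3), T-like cells (2), cluster 4 (3) and cluster 8 (2). Leaving out the 3 unnamed clusters, also chosen after seeing the data, left 27 inducible and 5 constitutive pairs higher among 64 measured pairs of the 10 members. In the 7 named classes 6.76% to 13.3% of all measured genes were higher.

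By class, 5 of 6 inducible members were higher in macrophage-like cells and 1 lower, where 12.1% of all measured genes were higher and 16.3% lower. In Kupffer-like cells 3 of 6 were higher and 0 lower (all genes 12.6% and 23.1%), and in monocyte-like cells 3 of 5 and 0 (11.8% and 15.9%). Endothelial-like cells had 5 of 6 higher and 0 lower (12.3% and 14.0%), B-like cells 6 of 6 and 0 (6.76% and 27.2%), T-like cells 5 of 5 and 0 (9.74% and 19.5%) and cluster 8 had 5 of 5 and 0 (12.2% and 26.0%). All 5 measured members were higher in cluster 4 as well, but there 36.2% of all genes were higher and 31.4% lower, the widest spread of any class. Neutrophil-like cells had 0 of 3 higher and 2 lower (13.3% and 20.8%), and cluster 1 had 1 of 6 higher and 2 lower (19.3% and 23.4%). The median log2 ratio of the inducible members ran from -0.80 in neutrophil-like cells to 2.45 in cluster 4, and that of the constitutive members from -0.40 to 1.23 in the same classes. The median over all measured genes stayed between -0.21 in B-like cells and 0.16 in cluster 4.

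**Figure D1:**
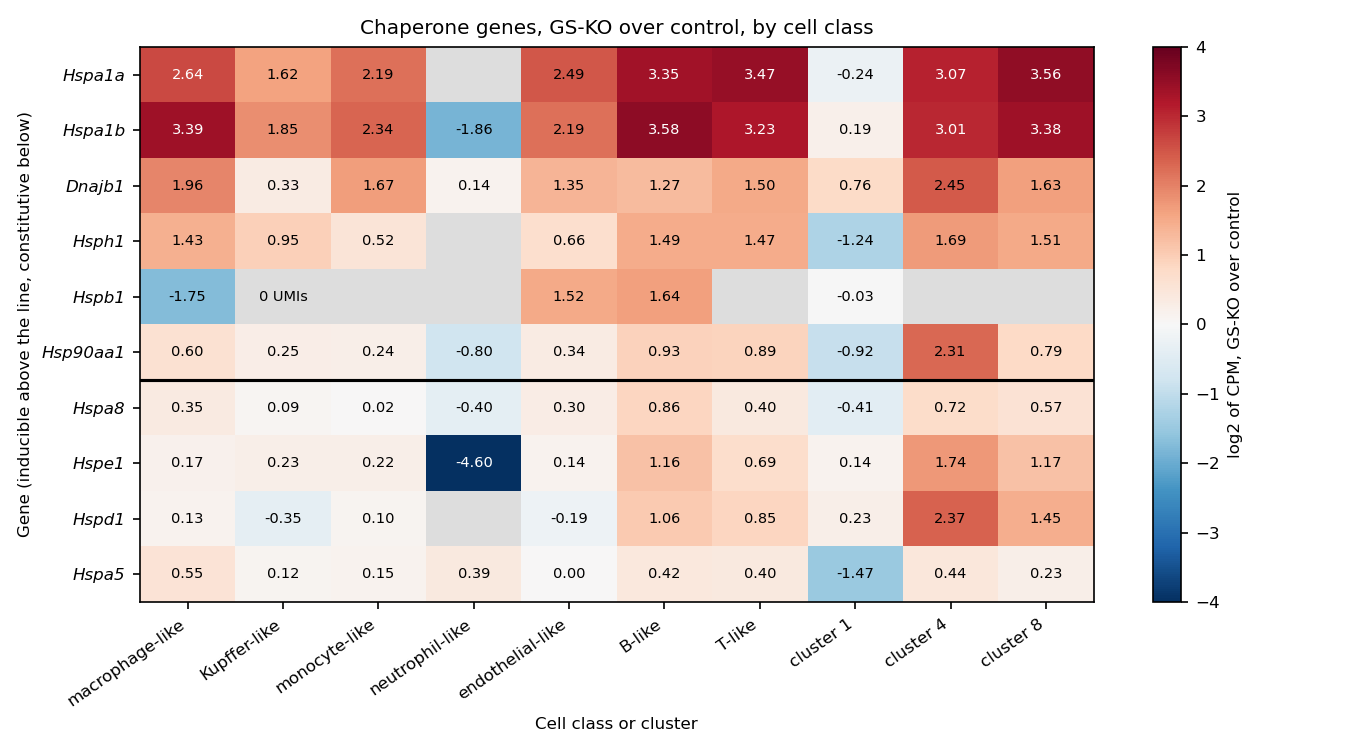
Log2 ratio of CPM, GS-KO over control, for the 10 genes (rows, inducible above the line) in 10 cell classes (columns). Red is higher and blue lower in GS-KO, grey marks fewer than 20 UMIs over both libraries or 0 UMIs in GS-KO. The top 2 rows, Hspa1a and Hspa1b, are clearly red in 8 of the 10 columns. Of these the Kupffer-like column is the palest, at 1.62 and 1.85. Hspa5 in the last row is blue in cluster 1 at -1.47 and pale elsewhere.

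Hspa1a and Hspa1b, which encode almost the same inducible HSP70 protein, had the highest median ratios of the 10 members. In macrophage-like cells Hspa1a stood at 540.1 CPM in GS-KO (485 to 600.0) and 86.4 CPM in control (81.3 to 91.8), a ratio of 6.25 (5.52 to 7.06). Hspa1b stood at 681 CPM in GS-KO (619 to 748) and 65.2 CPM in control (60.8 to 69.9), a ratio of 10.4 (9.28 to 11.7). Neither pair of intervals overlapped. The macrophage-like class joins 2 clusters, and in both the GS-KO library was higher: the sum of Hspa1a and Hspa1b was 1355 against 151 CPM in cluster 10 and 967 against 153 CPM in cluster 11. Cluster 10, the larger of them, had 11 macrophage and 9 Kupffer markers, with Clec4f and Vsig4 of the Kupffer list and Mmp12 and Trem2 of the macrophage list among its leading genes. The line between the macrophage-like and Kupffer-like classes is therefore not sharp, and at the coarser Leiden resolution of 0.5 a cluster led by Mmp12, Clec4f and Fabp7 was named Kupffer-like. Kupffer-like cells differed less, with 246 CPM of Hspa1a in GS-KO and 80.3 CPM in control, and 239 against 66.3 CPM of Hspa1b. There 1 GS-KO cell gave 35.2% of the UMIs of the pair, and the ratio of the sum was 3.31 with all cells and 2.50 without the top cell of each library. The class boundaries mattered too, since the CPM ratio of Hspa1b in Kupffer-like cells was 3.60 here, 5.03 when classes were built without the 10 members and 7.13 at that coarser resolution.

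Monocyte-like cells had the highest summed Hspa1a and Hspa1b level of all classes in either library, with 1749 CPM in GS-KO (1621 to 1884) and 363 CPM in control (325 to 405). The control value of that class was therefore above the GS-KO value of cluster 4, at 269.5 CPM. In GS-KO the order after monocyte-like cells was B-like (1387 CPM), endothelial-like (1274) and macrophage-like (1221), and the intervals of these 3 overlapped. Cluster 8 (886), T-like (582) and Kupffer-like (485) followed. In control the order after monocyte-like cells was endothelial-like (251 CPM), macrophage-like (152), Kupffer-like (147) and B-like (124), and the intervals of macrophage-like and Kupffer-like cells overlapped. With all cells counted, the ratios were largest in the lymphoid classes. B-like cells, whose GS-KO and control cells lay mostly in different clusters (clusters 5 and 12, described further on), had a ratio of 11.2 (9.65 to 13.1). Cluster 8 had one of 10.9 (8.65 to 13.9). T-like cells, which lay in 1 cluster here but in different clusters by library at a finer resolution, had one of 10.1 (7.51 to 13.7), where 1 cell gave 43.8% of the T-like GS-KO UMIs and the ratio was 6.85 without the top cell of each library. Endothelial-like cells had a ratio of 5.07 (4.27 to 6.05), where 1 cell gave 33.3% of the GS-KO UMIs, and 4.07 without the top cell of each library. Cluster 4 had one of 8.25 (5.26 to 13.4), with 52.4% of its GS-KO and 70.8% of its control UMIs in 1 cell each. Without the top cell of each library its ratio was 14.3. Macrophage-like cells had a ratio of 8.05 (7.40 to 8.76), and 7.62 without those top cells. The order of the ratios thus depended on single cells.

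The pattern of Hspa1a and Hspa1b was absent in 2 classes. Neutrophil-like cells had 22.5 CPM of Hspa1b in GS-KO (7 UMIs) and 81.8 CPM in control (21 UMIs), a ratio of 0.276 (0.0989 to 0.673), and 52.4% of the control UMIs came from 1 cell. Their summed Hspa1a and Hspa1b was 32.2 against 89.6 CPM, the lowest GS-KO value of the 10 compared classes. Cluster 1, whose RNA held 53825 CPM of abundant hepatocyte genes in GS-KO and 61175 CPM in control, had 58.1 CPM in GS-KO and 54.2 CPM in control, a ratio of 1.07 (0.514 to 2.02). At this depth no difference of the pair was detectable in cluster 1.

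**Figure D2:**
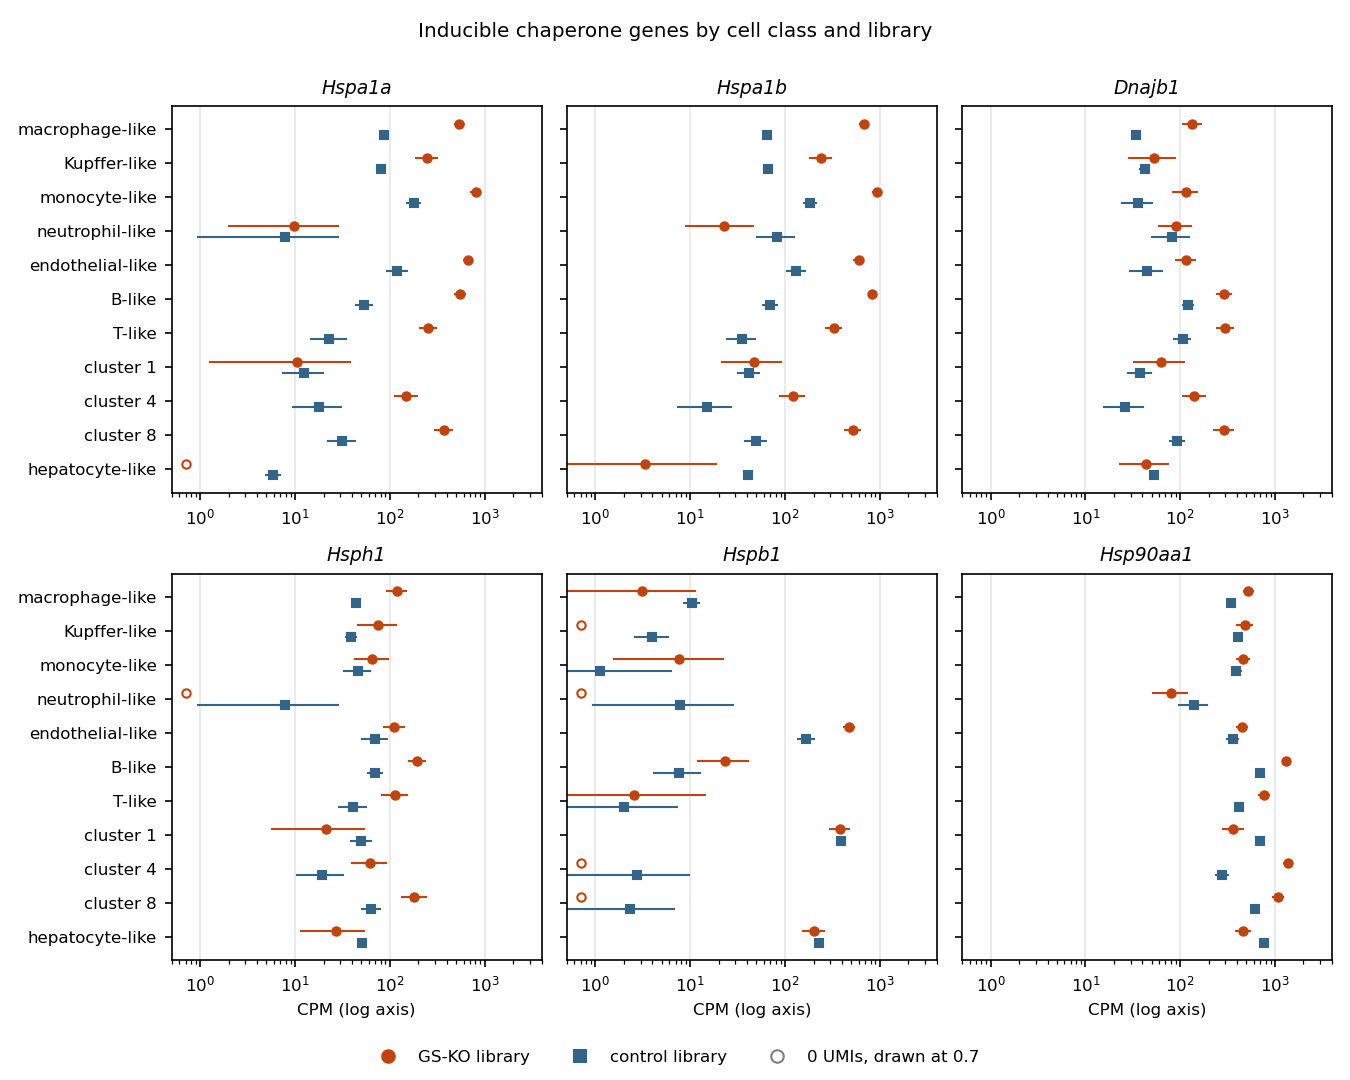
CPM on a log axis of the 6 inducible genes by cell class, with GS-KO as circles above control squares in each row and 95% Poisson intervals as bars. Open symbols mark 0 UMIs and are drawn at 0.7. For Hspa1a and Hspa1b the GS-KO points lie to the right in 8 of the 10 compared classes, while the Hsp90aa1 points lie close together in most of them, and Hspb1 is high in endothelial-like cells, cluster 1 and hepatocyte-like cells alone.

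The partners of HSP70 were also higher in most classes, with smaller ratios. Dnajb1, a J-domain co-chaperone that brings clients to HSP70, was called higher in 8 of 10 classes, with ratios of 1.10 in neutrophil-like cells to 5.46 in cluster 4 and a median of 2.69. In macrophage-like cells it stood at 133 CPM in GS-KO and 34.3 CPM in control, a ratio of 3.89 (3.05 to 4.92). In T-like cells it stood at 299 CPM in GS-KO and 106 CPM in control, a ratio of 2.83 (2.15 to 3.71). The order of classes differed from that of Hspa1a: T-like and B-like cells were at the top for Dnajb1 in both libraries, and monocyte-like cells, first for Hspa1a, ranked below macrophage-like cells in GS-KO. In neutrophil-like cells Dnajb1 was 90.1 against 81.8 CPM, close together where Hspa1b was lower in GS-KO. The Dnajb1 call in cluster 1 rested on 12 GS-KO UMIs. Its ratio was 1.69 with an interval (0.822 to 3.19) that spans 1.

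Hsph1, the HSP110 that recharges HSP70 with ATP, was called higher in 7 of 9 measured classes and lower in 1. It stood at 118 CPM in GS-KO and 43.8 CPM in control macrophage-like cells, a ratio of 2.69 (2.09 to 3.43). In B-like cells it stood at 196 against 69.9 CPM, a ratio of 2.80 (2.14 to 3.67). The CPM ratio of Hsph1 in cluster 4 cells was 3.23 from summed UMIs but 0.294 as a mean over cells, and the 5 deepest of the 39 GS-KO cells there gave 67.3% of the UMIs. The lower call was in cluster 1, at 21.1 against 50.1 CPM, with an interval of the ratio from 0.112 to 1.13 that spans 1.

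Hsp90aa1, the inducible cytosolic HSP90, was abundant in both libraries and differed least among the inducible genes that every class expressed. Its ratio ran from 0.529 in cluster 1 to 4.96 in cluster 4, with a median of 1.39, and it was called higher in 5 of 10 classes and lower in 2. In macrophage-like cells it stood at 522 CPM in GS-KO and 343 CPM in control, a ratio of 1.52 (1.36 to 1.70), at the edge of the call, and 1.49 without the top cell of each library. B-like cells had 1318 against 691 CPM (ratio 1.91, 1.73 to 2.10) and T-like cells 771 against 415 CPM (1.86, 1.59 to 2.16). The highest GS-KO value was in cluster 4, with 1363 against 275 CPM, where 1 GS-KO cell gave 36.3% of the UMIs. The CPM ratio of Hsp90aa1 in cluster 4 cells was 2.18 as a mean over cells. Monocyte-like cells, the highest in Hspa1a, had a ratio of only 1.18 (0.981 to 1.41). Neutrophil-like cells were lower in GS-KO, at 80.5 against 140.2 CPM, as was cluster 1, at 364 against 689 CPM.

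Hspb1, the small heat shock protein HSP27 that holds unfolded proteins without using ATP, followed cell class more than library. It stood at 477 CPM in GS-KO and 167 CPM in control endothelial-like cells, at 380.2 and 389 CPM in cluster 1, and at 201 and 228 CPM in hepatocyte-like cells. In macrophage-like cells it stood at 3.1 CPM in GS-KO (2 UMIs) and 10.4 CPM in control, a ratio of 0.298 (0.0357 to 1.10) with 48.1% of the control UMIs in 1 cell. Other immune classes lay between 0 and 23.5 CPM. In the Kupffer-like class 0 UMIs were counted in GS-KO and 27 in control. The endothelial-like ratio was 2.86 (2.28 to 3.61), while 1 cell gave 49.7% of those GS-KO UMIs, and 1.92 without the top cell of each library. The CPM ratio of Hspb1 in endothelial-like cells was 1.16, no longer called, after thinning each cell to 1000 UMIs. The B-like call, 23.5 against 7.53 CPM from 12 and 14 UMIs, rested on 1 cell with 83.3% of the GS-KO UMIs, and its ratio was 0.733 without the top cells. In cluster 1, 1 cell gave 69.4% of the GS-KO UMIs, and the ratio was 0.977 with it and 0.392 without the top cells.

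The constitutive genes set the contrast. Hspa8, the HSP70 that cells always hold, stood at 1602 CPM in GS-KO (1506 to 1703) and 1254 CPM in control (1235 to 1274) macrophage-like cells, a ratio of 1.28 (1.20 to 1.36). Monocyte-like cells had 1504 against 1486 CPM, a ratio of 1.01 (0.917 to 1.12), in the same cells whose Hspa1a ratio was 4.55. Over the 10 classes the ratio of Hspa8 ran from 0.754 in cluster 1 to 1.82 in B-like cells with a median of 1.25, while that of Hspa1a had a median of 5.94 and that of Hspa1b one of 6.57. Its level varied less between classes as well: the highest class was 2.47 times the lowest in control, against 30.1 times for Hspa1a. Cluster 8 had the most Hspa8 in both libraries, at 2338 CPM in GS-KO and 1579 CPM in control, and neutrophil-like cells the least, at 483 and 639 CPM.

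Hspe1 and Hspd1, the lid and the barrel of the mitochondrial chaperonin, differed together across classes. Both were higher in GS-KO in B-like cells (1003 against 449 CPM of Hspe1, ratio 2.23, and 364 against 174 CPM of Hspd1, ratio 2.09), in T-like cells (ratios 1.61 and 1.81), in cluster 8 (2.25 and 2.74) and in cluster 4 (3.34 and 5.18). The CPM ratio of Hspe1 in cluster 4 cells was 1.31 as a mean over cells. In macrophage-like cells Hspe1 stood at 371 CPM in GS-KO and 329 CPM in control, and Hspd1 at 146 and 134 CPM. Ratios of 1.13 (0.984 to 1.28) and 1.09 (0.878 to 1.35) followed, both with intervals that include 1. The split was thus between lymphoid classes and cluster 4, with calls, and the macrophage, monocyte and endothelial classes, with none. Control levels of both were highest in hepatocyte-like cells and cluster 1, with 981 and 898 CPM of Hspe1. Neutrophil-like cells had 1 UMI of Hspe1 in GS-KO and 20 in control, a ratio of 0.0413 (0.000997 to 0.258). Across the 22 points of 11 classes and 2 libraries, log2(CPM + 10) levels of Hspe1 and Hspd1 correlated at r = 0.94, as did those of Hspa1a and Hspa1b at 0.94, while Hspa1a and Hspd1 did so at 0.00. These are descriptions over points that share libraries.

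Hspa5, the BiP chaperone of the endoplasmic reticulum, was called higher in no class and lower in cluster 1, at 106 CPM in GS-KO and 293 CPM in control (ratio 0.360, 0.218 to 0.563). In macrophage-like cells it stood at 906 against 619 CPM, a ratio of 1.46 (1.34 to 1.59), just under the 1.5-fold limit, with an interval above 1. Endothelial-like cells had 615 against 617 CPM, a ratio of 0.997 (0.864 to 1.15). Macrophage-like and Kupffer-like cells had most Hspa5 in both libraries, at 906 and 864 CPM in GS-KO, against 619 and 796 CPM in control.

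**Figure D3:**
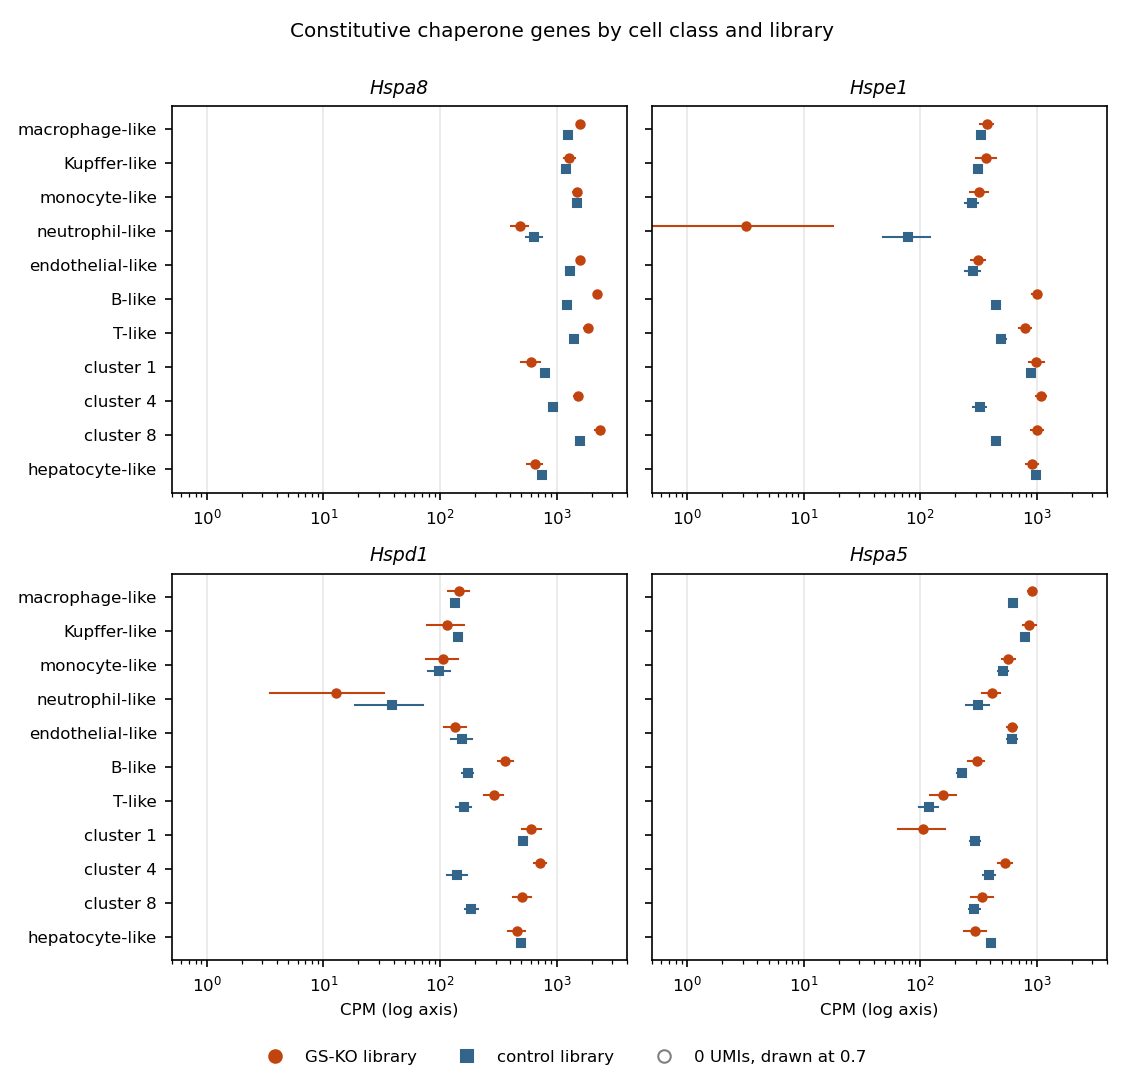
CPM on a log axis of the 4 constitutive genes by cell class, with GS-KO as circles above control squares and 95% Poisson intervals as bars, on the same axis as the inducible genes. For Hspa8 in monocyte-like cells the symbols sit at 1504 and 1486 CPM, nearly one above the other, and the widest gap is that of Hspe1 in neutrophil-like cells.

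The B-like class held different clusters in the 2 libraries. These clusters had used Hspa1a and Hspa1b, so a likeness of those 2 genes within a cluster is partly built in. The levels by cluster are therefore given as a description only. Of the GS-KO B-like cells 111 lay in cluster 5 and 9 in cluster 12, while 8 control cells lay in cluster 5 and 444 in cluster 12. Cluster 5 had 1632 CPM of Hspa1a and Hspa1b together in GS-KO (1514 to 1758) and 1598 CPM in its 8 control cells (1170.1 to 2132). Cluster 12 had 65.3 CPM in its 9 GS-KO cells (21.2 to 152) and 101 CPM in control (86.8 to 118). Within each cluster the intervals of the libraries thus overlapped, on 46 control UMIs in cluster 5 and 5 GS-KO UMIs in cluster 12. Hspa8 was likewise 2445 against 1841 CPM in cluster 5 and 1084 against 1236 CPM in cluster 12, with overlapping intervals in both. Hsp90aa1 was 1511 against 1216 CPM in cluster 5, but lower in GS-KO in cluster 12, at 287 against 697 CPM. Hspe1 was 1150.2 against 660.1 CPM in cluster 5, higher in GS-KO, and 222 against 452 CPM in cluster 12, lower in GS-KO, with no overlap of intervals in either. Hspa5 was 163 against 243 CPM in cluster 5, with overlapping intervals. In cluster 12 Hspa5 was 1097 CPM in GS-KO (875 to 1359) against 222 CPM in control (200.1 to 245), from 84 UMIs in 9 GS-KO cells. The GS-KO B-like cell with most Hspa5 held 62 UMIs. It must lie in cluster 12, since 48.4% of the 124 GS-KO B-like cells had Hspa5 and cluster 5 had only 70 UMIs. That cell thus gave most of the 84 UMIs. The B-like ratio of Hspa5 was 1.34 with all cells and 0.890 without the top cell of each library. For that reason the classes were rebuilt without the 10 members. The B-like cells again fell mainly into one cluster of 115 GS-KO and 19 control cells and one of 5 GS-KO and 434 control cells. The split of cells thus did not need the members, but their levels within the rebuilt clusters were not compared. At this resolution the other classes compared were each held mostly by the same cluster in both libraries.

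T-like cells separated by library at the finer Leiden resolution of 2. There cluster 26 held 63 GS-KO cells and 1 control cell, while cluster 8 of that resolution held 4 GS-KO and 181 control cells. Cluster 26 had 327 CPM of Hspa1a and Hspa1b together in its GS-KO cells (271 to 392) and 0 UMIs in its 1 control cell. Cluster 8 of that resolution had 4424 CPM in its 4 GS-KO cells, from 101 UMIs, of which 1 cell gave 99. Its control cells had 61.6 CPM (46.7 to 79.6). A further cluster named T-like at that resolution, with 9 GS-KO and 72 control cells, had 347 CPM in GS-KO (240.0 to 484) and 35.9 CPM in control (21.9 to 55.4). That cluster need not be a part of the T-like class above. The control cells of that class had 58 UMIs of the pair, as many as those of cluster 8 of resolution 2 alone. The T-like ratios above thus also compare mostly different clusters at that resolution.

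Between single cells, the higher level in GS-KO came from more cells with some Hspa1a or Hspa1b and from a tail of cells with much. Cells of at least 5000 UMIs were thinned to that number, so that depth was equal. In macrophage-like cells the median was 4 UMIs of the pair over 35 GS-KO cells and 0 over 567 control cells. The share with at least 10 UMIs was 25.7% (9 cells) in GS-KO and 0.705% (4 cells) in control. Monocyte-like cells had medians of 6 UMIs in GS-KO and 1 in control, and 32.5% of GS-KO against 1.11% of control cells had at least 10. Endothelial-like cells had 17.8% against 2.17%. In T-like cells the median was 0 in both libraries, and 3 of 47 GS-KO cells and 0 of 101 control cells reached 10 UMIs. Hspa8 was more even, with medians of 7 and 6 UMIs in macrophage-like and of 6 and 7 UMIs in monocyte-like cells. The 4 of 35 GS-KO macrophage-like cells with most Hspa1a and Hspa1b held 43.4% of their UMIs, while the 4 with most Hspa8 held 20.3% of its UMIs.

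**Figure D4:**
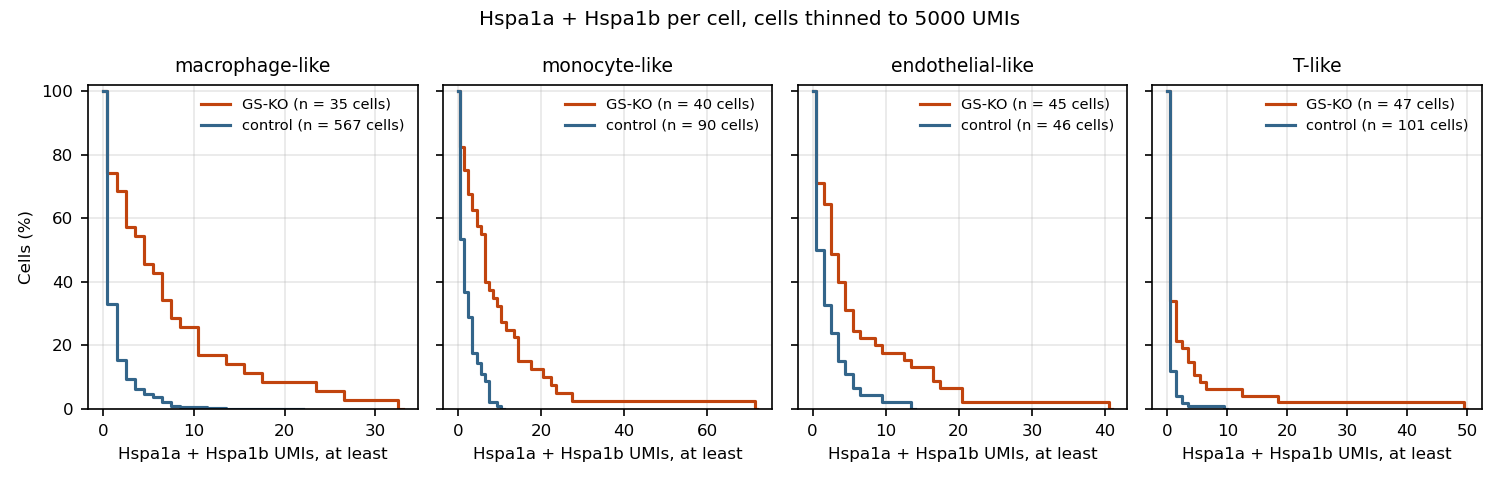
Share of cells (%) with at least the number of Hspa1a and Hspa1b UMIs on the horizontal axis, in cells thinned to 5000 UMIs, GS-KO in orange and control in blue, for 4 classes. The GS-KO line lies above the control line in each panel, and in macrophage-like cells 25.7% of GS-KO and 0.705% of control cells reach 10 UMIs.

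In shallower thinning to 1000 UMIs, which keeps more cells, a UMI of either gene was found in 48.7% (32.4 to 65.2) of GS-KO and 12.6% (10.00 to 15.5) of control macrophage-like cells. Unthinned, those shares were 84.6% and 51.4%, at median depths of 17318 and 20214 UMIs. Thinned B-like cells had 41.7% against 7.25%, and unthinned ones 63.7% against 16.2%, at medians of 3729 and 3634 UMIs. Neutrophil-like cells, the lowest GS-KO share among the named classes compared, had 2.91% and 5.15% thinned and 6.80% and 9.09% unthinned, at medians of 2602 and 2371 UMIs. The thinned control share of T-like cells, 4.74%, was no higher than that, while their GS-KO share was 21.9%. Control cells of cluster 4 and hepatocyte-like control cells had 2.14% and 3.85%, and GS-KO cells of cluster 1 had 0 of 39. No class is known to lack these genes, so no share here measures the RNA that droplets share on its own.

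Hspa1a and Hspa1b contributed unequally to their sum in some cells. Their 3′ ends can be told apart: none of the 411 windows of 90 bases in the last 500 bases of the longest Hspa1a transcript occurred in Hspa1b, while 49.3% of windows over the whole transcript did. Over all kept cells Hspa1a made up 45.4% of the UMIs of the pair in GS-KO (43.8 to 47.0) and 45.8% in control (44.6 to 47.1). In macrophage-like cells the share was 44.2% in GS-KO (40.7 to 47.8) and 57.0% in control (54.7 to 59.3), with intervals that do not overlap. Kupffer-like cells had 50.8% and 54.8%, and monocyte-like cells 46.4% and 49.1%, each with overlapping intervals. In control hepatocyte-like cells Hspa1a made up 12.6% (10.7 to 14.8), from 137 of 1085 UMIs, far below the immune classes with as many UMIs. Hspa1a overlaps Gm20481 on the other strand.

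**Figure D5:**
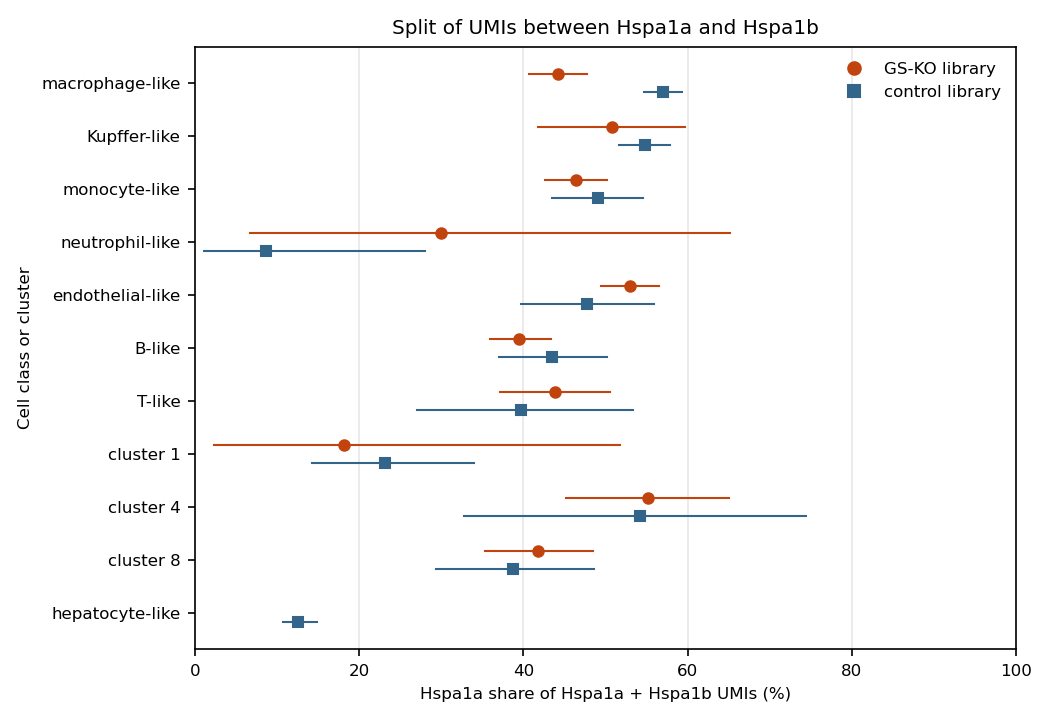
Share (%) of the summed Hspa1a and Hspa1b UMIs that belong to Hspa1a, by cell class, GS-KO as circles above control squares, with exact binomial 95% intervals. Most classes lie between 38.7% and 57.0%. Cluster 1 and neutrophil-like cells lie lower, on few UMIs, and control hepatocyte-like cells lie at 12.6%.

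Hepatocyte-like cells, the main target of AAV8, gave 17 GS-KO and 404 control cells and are described only. In the GS-KO cells 0 UMIs of Hspa1a and 1 of Hspa1b were counted among 298215, while control cells had 5.91 CPM of Hspa1a and 40.9 CPM of Hspa1b. The GS-KO upper bounds were 12.4 and 18.7 CPM. Dnajb1 stood at 43.6 CPM in GS-KO and 53.5 CPM in control, Hspe1 at 915 and 981 CPM and Hspd1 at 456 and 491 CPM. Hsp90aa1 stood at 459 and 761 CPM, and Hspa5 at 295 and 408 CPM. Hspb1 stood at 201 and 228 CPM, Hspa8 at 651 and 744 CPM and Hsph1 at 26.8 and 50.6 CPM. All 10 values were thus below those of control cells, and for Hspa1b, Hsp90aa1 and Hspa5 the interval of the ratio lay below 1, but the 5 deepest GS-KO cells gave 72.6% of the UMIs of that class.

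The inducible pair Hspa1a and Hspa1b was highest in barcodes with little mitochondrial RNA. Per 1000000 UMIs that are not mitochondrial, GS-KO barcodes had 935 of Hspa1a and Hspa1b together with up to 5% mitochondrial RNA, 792 at 5 to 10%, 412 at 10 to 20%, 111 at 20 to 50% and 224 above 50%. Control barcodes had 132, 91.7, 78.3, 75.3 and 106 in the same ranges. The GS-KO library thus lay above the control library in each range, with overlapping intervals at 20 to 50% (62.2 to 183 in GS-KO and 65.4 to 86.2 in control). The mix of cells moved along: abundant hepatocyte genes held 6497 per 1000000 in the lowest range of GS-KO and 30011 in that of control, against 42799 and 82626 at 10 to 20%. The part of the cell mix in these differences was not tested.

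Chaperone lists outside the 10 members were set against the 13.9% of pairs higher and 21.4% lower over all genes. The HSP90 family and its co-chaperones had 30 of 125 measured pairs higher (24.0%) and 13 lower (10.4%), and 10 of the 30 were in cluster 4. Hsp90ab1, the constitutive cytosolic HSP90, stood at 1866 CPM in GS-KO and 1638 CPM in control macrophage-like cells, a ratio of 1.14 (1.07 to 1.21), below the 1.52 of Hsp90aa1. Fkbp5, an HSP90 co-chaperone known as a glucocorticoid target, stood at 77.6 against 10.8 CPM in macrophage-like (ratio 7.17, 5.08 to 10.00) and 148 against 20.2 CPM in Kupffer-like cells (7.32, 4.99 to 10.5). Fkbp5 was also called higher in monocyte-like and neutrophil-like cells and in cluster 8. In B-like and T-like cells it had 18 and 14 UMIs over both libraries, under the 20 needed for a call, with ratios of 1.04 and 0.704. Other J-domain co-chaperones had 27 of 172 pairs higher and 27 lower (15.7% each), near the share of all genes for higher pairs. Dnaja1, the most abundant of them, was called higher in 8 classes, with 759 against 315 CPM in macrophage-like cells (ratio 2.41, 2.19 to 2.64) and 1608 against 769 CPM in B-like cells.

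In the remaining lists 5.88% to 14.5% of pairs were higher, against 13.9% over all genes, and 7.25% to 28.6% were lower, against 21.4%. Nucleotide exchange factors and BAG proteins had 9 of 69 pairs higher and 5 lower, other HSP70 and HSP110 genes 8 of 55 and 6, the TRiC chaperonin with prefoldin 12 of 129 and 11, of which 9 higher pairs were in cluster 4, and mitochondrial chaperones and proteases 12 of 87 and 19. Bag3, the co-chaperone best known as an HSF1 target, stood at 38.8 against 22.7 CPM in macrophage-like (ratio 1.71, 1.09 to 2.58) and 66.7 against 32.0 CPM in endothelial-like cells (2.08, 1.20 to 3.75). It was called in these 2 classes only. Its ratio was 1.44 in Kupffer-like cells, 1.12 in cluster 1 and 0.716 (0.234 to 1.87) in monocyte-like cells, each with an interval that spans 1. The other classes had fewer than 20 UMIs of Bag3. Endoplasmic reticulum chaperones and unfolded protein response genes had 19 of 187 pairs higher (10.2%) and 41 lower (21.9%), near the shares over all genes. Calr, the calreticulin of that compartment, was called lower in 8 classes, with 443 against 766 CPM in Kupffer-like cells (ratio 0.578, 0.477 to 0.695), while Hspa5 beside it was called in 1. Small heat shock proteins other than Hspb1 had 1 of 14 pairs higher and 4 lower. Heat shock factors and their regulators had 1 of 17 higher and 3 lower, and the RNA of Hsf1, the factor itself, stood at 6.21 against 14.9 CPM in macrophage-like cells, from 4 UMIs in GS-KO.

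Other gene groups moved with the inducible chaperones. Immediate early genes, which cells switch on within minutes of many stimuli, tissue digestion among them, had 93 of 155 measured pairs higher (60.0%, against 13.9% over all genes) and 10 lower (6.45%, against 21.4%). Their summed level in macrophage-like cells was 10365 CPM in GS-KO and 3909 CPM in control, with Fos at 2061 against 466 CPM. In Kupffer-like cells it was 2849 against 3090.4 CPM, with Fos at 261 against 288 CPM, although Hspa1a was higher in GS-KO there. In neutrophil-like cells it was 36154 against 27416 CPM, although Hspa1b was lower. Rbm3, an RNA-binding protein known to rise in the cold, was called higher in 9 of 10 classes, with 314 against 117 CPM in macrophage-like cells. Abundant hepatocyte genes were called lower in GS-KO in 145 of 193 pairs (75.1%, against 21.4% over all genes), with 219 against 1931 CPM summed over 27 genes in B-like cells and 3036 against 3491 CPM in macrophage-like cells. Kupffer-like cells went the other way in that sum, with 4512 CPM in GS-KO and 2641 CPM in control. Depth, the mitochondrial share and these groups all differed between the libraries, and their part in the chaperone levels was not tested.

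The genes with levels most like those of Hspa1a and Hspa1b together, by Pearson correlation of log2(CPM + 10) over the 22 points, were Kdm1a (r = 0.80), Dctn4 (0.79), Ppp1r21, Jmjd6 and Srek1 (0.78 each) among 4585 genes ranked. For Hspa8 they were Ino80 (0.92), Zcchc9 (0.91), Ankrd10, Smc6 and Alkbh1 (0.90 each). The points share libraries, so these values describe the data and carry no test.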

How the data were processed

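Cell Ranger (3.1.0 per the file headers) and mm10 are named in the submitters' processing notes. The authors deposited raw UMI counts, 1 matrix per library. Library preparation is labelled 3′ and once as from nuclei, which was not settled.

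The UMI, gene and mitochondrial limits were 500, 200 and 20%, and 662 GS-KO and 3275 control barcodes passed. Scrublet, at an expected rate of 5%, removed 7 and 24 doublets. Cells were normalised to 10000 UMIs and clustered jointly (2000 variable genes, 30 principal components, 15 neighbours, Leiden resolution 1) with no batch correction, since library and group coincide. A class name needed at least 3 markers, more than any other class, not fewer than any rival among the 10 leading genes, and at least 5 markers where none of its own was among those 10. A cluster of low depth with none among them stayed unnamed.

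For each class, UMIs were added up within a library and divided by their total to give CPM. Intervals are 95%: exact Poisson for CPM, exact binomial (Clopper-Pearson) for shares, exact conditional binomial for ratios. UMIs remove PCR copies, and intervals cover counting error only. A group with 0 UMIs was put at 3 counts when a call was decided. Classes had 30 cells in each library, except Kupffer-like. Scripts were tested on simulated data. Besides the 10 members, the text names from each other list the gene with most UMIs or up to 3 called the same way in most classes, and the 5 genes of highest correlation. Members and lists were chosen with earlier results of these data known. Positions came from GENCODE M21, promoters from RefSeq. Software was scanpy 1.11.5 with igraph 0.11.9, scikit-learn 1.9.0 and anndata 0.12.19, pandas 2.3.3, scipy 1.17.1, matplotlib 3.10.9 and numpy 2.4.6 under Python 3.11.15. Alternatives changed the mitochondrial limit, doublets, depth, weighting, scaling, minimum UMIs, single cells and clustering.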

Additional observations from a re-analysis of the deposited data

How the results depend on the processing

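The count of inducible pairs higher in GS-KO, 38, was 24 to 39 over the alternatives run, and moved by over 1.5 times only with cells thinned to 1000 UMIs, which left fewer pairs measured and gave 24 higher and 1 lower. A mitochondrial limit of 10% left 1 constitutive pair lower, as did a minimum of 50 UMIs. Leiden resolution 2 gave 5 constitutive pairs higher. Named classes only gave 3 inducible pairs lower, and 5 constitutive pairs higher and 1 lower. The CPM ratio of Hsph1 in cluster 4 cells reversed, to 0.294, as a mean over cells, where each cell counts the same. The cause of these shifts was not tested. Of single ratios, 39 moved by more than their interval and 26 did not under thinning, so most moved. As a mean over cells 21 moved, 1 reversed and 70 did not move, and without the cell with most member UMIs 11 moved and 79 did not. No paired analysis was possible because each group holds 1 library. GS-KO classes of 19 to 124 cells, with less total depth than control in most classes, limit the precision of every ratio, and no result could be set against the spread between mice.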
